A study of Mus musculus with 9 samples.

Results

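The leukocyte miRNAs described here are 5 mature miRNAs from 4 hairpins: mmu-miR-142a-3p, mmu-miR-142a-5p, mmu-miR-223-3p, mmu-miR-150-5p and mmu-miR-155-5p. They were chosen by name from small RNA sequencing of whole embryonic mouse kidneys, and all 5 were found among 1607 known mouse miRNA names. The kidneys were taken at embryonic day 16.5. There were 3 libraries from kidneys carrying a DROSHA-E1147K transgene, 3 from DROSHA knockout kidneys and 3 from wild-type kidneys, the controls. DROSHA is an RNase III enzyme of the nucleus that releases miRNA hairpins from their long primary transcripts, and E1147K is a substitution in it. The series asks how loss or a tumour-associated mutation of DROSHA affects the developing kidney, in separate mouse lines. The promoter or driver of the transgene, the cells in which DROSHA was lost, the mouse strains, the line of the wild-type kidneys and the number of animals behind each library are not given in the labels. Drosha mRNA was not measured, and the genotypes could not be checked.

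miR-142 is made in nearly all blood cell lineages and in few other cells, and both strands of its hairpin are used. miR-223 is abundant in neutrophils and other myeloid cells. miR-150 rises as lymphocytes mature, and miR-155 is induced when lymphocytes and macrophages are activated. In a fetal kidney such miRNAs can come from tissue macrophages and from blood. The assay measures no protein-coding leukocyte marker, so the cell source of the reads was not checked. In whole tissue, fewer cells of a type and less RNA per cell cannot be told apart.

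The mature sequences are shown because likeness of sequence and strand bear on how reads of these names can be assigned. They come from RefSeq (GRCm38.p6, the mm10 assembly), where 4 of the 5 miRNAs matched, and miR-150-5p did not. Each is written 5′ to 3′ with the seed (bases 2 to 8), the stretch that pairs with target mRNAs, in capitals.
miR-142a-3p: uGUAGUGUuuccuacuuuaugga
miR-142a-5p: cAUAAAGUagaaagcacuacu
miR-223-3p: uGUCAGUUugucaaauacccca
miR-155-5p: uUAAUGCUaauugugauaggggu
miR-142b: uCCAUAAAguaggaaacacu
The 4 matched members have 4 different seeds. No other mature miRNA of the RefSeq table had the seed of any of them. The name miR-142b, which is no member, is shown because its hairpin lies on the opposite strand of the same locus. Its 20 bases are the exact reverse complement of bases within miR-142a-3p. It also equals miR-142a-5p at 16 of 18 aligned bases, and differs by A11G and G14A (miR-142a-5p base first, counted from 1 at its 5′ end).

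The hairpin of miR-142a is at chromosome 11:87756864-87756927 (mm10, plus strand), within an intron of the lincRNA gene Mir142hg in GENCODE. It is shown with both mature arms in capitals because the balance of its arms is described below.
Mir142: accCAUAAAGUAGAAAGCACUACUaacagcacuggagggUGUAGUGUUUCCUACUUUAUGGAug
The miR-223 hairpin is at chromosome X:96242817-96242926 and overlaps an exon of the noncoding gene F630028O10Rik. The miR-155 hairpin is at chromosome 16:84714140-84714204, in an exon of the lincRNA gene Mir155hg. The miR-150 hairpin is at chromosome 7:45121757-45121821 and overlaps no other annotated gene. The 4 loci are on 4 chromosomes, so no pair of hairpins can share a primary transcript.

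The libraries held 24350500 to 34896599 reads of known miRNAs. The 5 members together took 0.0552% to 0.147% of these reads in transgene libraries, 0.0565% to 0.146% in knockout libraries and 0.0438% to 0.0779% in controls. The lowest count of any member in any library was 780 reads (miR-142a-5p in control 3), with an exact 95% Poisson interval of 726 to 837 for counting error only. All 5 members passed the filter on low counts. Levels below are CPM, the reads of a name per 1000000 known miRNA reads after TMM scaling between libraries. CPM is a relative measure, so a change of most miRNAs together would not show in it. Such a change could also shift the CPM of a name whose own amount stayed the same. Whether the total amount of miRNA differed between groups was not tested.

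miR-142a, the pan-leukocyte miRNA, was higher on average in both DROSHA groups, with the widest spread there. miR-142a-3p was at 248, 707 and 215 CPM in transgene libraries 1 to 3, at 330, 135 and 713 CPM in knockout libraries 1 to 3, and at 198, 185 and 128 CPM in control libraries 1 to 3. All 3 transgene libraries were above all controls, with transgene 2 well apart, while knockout 2 lay among the controls. The means were 390 ± 275 CPM with the transgene, 393 ± 294 CPM in the knockout and 170 ± 37.1 CPM in controls (SD, n = 3 each). Against controls the log2 fold change was 1.20 (SE 0.64) for the transgene and 1.21 (SE 0.64) for the knockout, and the edgeR quasi-likelihood adjusted p was 0.553 for the transgene and 0.280 for the knockout. Neither passed the threshold of 0.05. Without transgene 2 the transgene value was 0.52, and without knockout 3 the knockout value was 0.54.

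The other arm of the same hairpin separated both DROSHA groups from controls. miR-142a-5p was at 75.7, 166 and 72.3 CPM in transgene libraries and at 108, 46.1 and 294 CPM in knockout libraries, against 33.1, 33.7 and 28.7 CPM in controls. Every library of either DROSHA group was above every control, and the controls differed among themselves by 1.17-fold at most. The log2 fold change was 1.72 (SE 0.63) for the transgene, with an edgeR unadjusted p of 0.0234 and an adjusted p of 0.529. For the knockout it was 2.23 (SE 0.64), with an edgeR unadjusted p of 0.00707 and an adjusted p of 0.108. Without transgene 2 and knockout 3 together, a comparison chosen after the data were seen, the log2 fold change was 1.30 for the transgene and 1.37 for the knockout. DESeq2 called miR-142a-5p in the knockout (log2 2.21, adjusted p = 0.00938), with the same direction in 3 of 3 knockout libraries. DESeq2 called 9.57% of 773 miRNAs higher and 5.05% lower in that comparison, whereas edgeR called 0 of 955 in either direction. DESeq2 called 0 members against controls in the transgene comparison, where it called 0.213% of 939 miRNAs higher and 0.213% lower, and 0 members between knockout and transgene, where it called 0.213% higher and 0.106% lower.

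**Figure D1:**
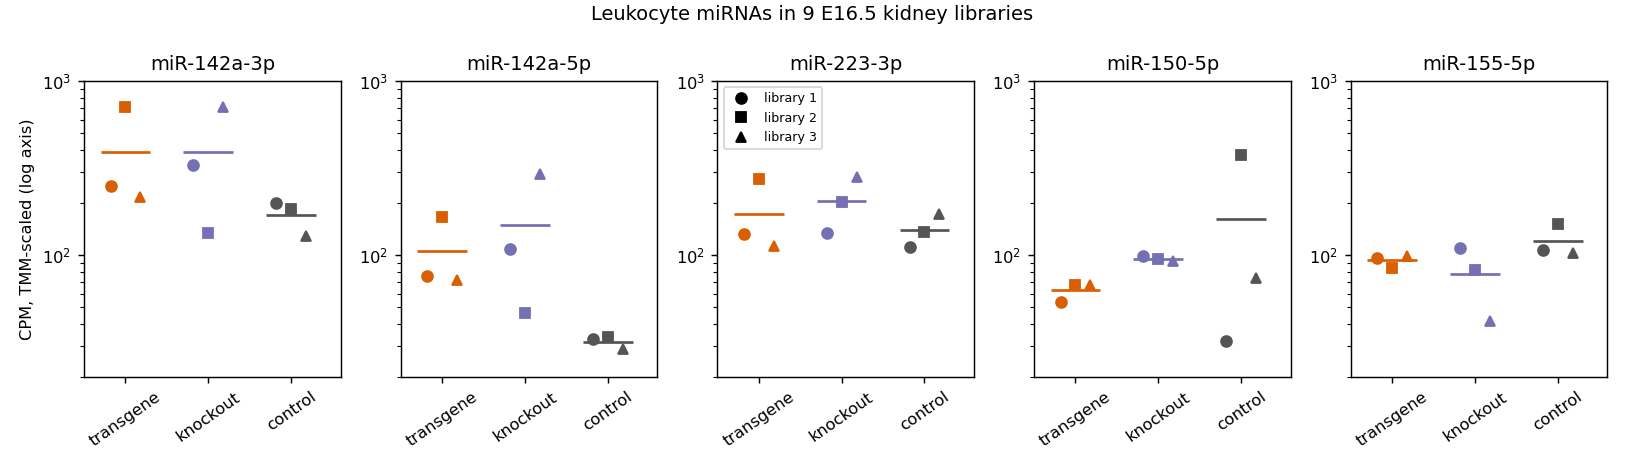
CPM (TMM-scaled, log axis) of the 5 leukocyte miRNAs in each library, with transgene, knockout and control from left to right in each panel. Symbols give the library number and bars the group mean. miR-142a-5p in all DROSHA libraries (46.1 to 294 CPM) is above all controls (28.7 to 33.7 CPM), and miR-150-5p in control 2 (378 CPM) is above every other library.

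miR-223-3p, the myeloid miRNA, varied less and did not separate the groups. It was at 132, 272 and 113 CPM in transgene libraries and at 133, 203 and 279 CPM in knockout libraries, against 111, 136 and 173 CPM in controls. The groups overlapped in every comparison, and the same 2 libraries as for miR-142a, transgene 2 and knockout 3, were highest. The log2 fold change was 0.30 (SE 0.41, edgeR adjusted p = 0.835) for the transgene and 0.55 (SE 0.41, edgeR adjusted p = 0.439) for the knockout. Without transgene 2 the transgene value was -0.12. Reads that the files assign to the Rfam mir-223 family, counted apart from the mature name, were at 17.9, 51.7 and 21.6 per 1000000 counted reads in transgene libraries, 21.2, 27.8 and 42.5 in knockout libraries and 13.9, 15.6 and 21.7 in controls. They were again highest in transgene 2 and knockout 3. Per 100 reads of miR-223-3p they stood at 20.8 ± 1.55 with the transgene, 18.7 ± 0.839 in the knockout and 16.4 ± 0.306 in controls (SD, n = 3 each), without overlap of either DROSHA group with controls. This ratio was computed after the data were seen and was not tested. No background share over other Rfam families was computed. The same ratio for mir-155 overlapped between groups, at 30.8 ± 2.42 with the transgene, 30.9 ± 1.72 in the knockout and 33.2 ± 5.77 in controls.

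miR-150-5p, the lymphocyte miRNA, had its widest spread among controls. It was at 53.6, 67.0 and 67.0 CPM in transgene libraries and at 98.6, 95.05 and 92.6 CPM in knockout libraries, against 32.2, 378 and 73.8 CPM in controls. Control 2 was 11.7-fold above control 1 and 3.83-fold above the next highest library of the 9. The log2 fold change against controls was -1.37 (SE 0.74, edgeR adjusted p = 0.561) for the transgene and -0.76 (SE 0.73, edgeR adjusted p = 0.566) for the knockout. Without control 2 both were positive, at 0.19 for the transgene and 0.81 for the knockout. The other arm of the same hairpin, miR-150-3p, was at 8.0 CPM in control 2 and at 0.848 to 1.62 CPM elsewhere. In control 2, miR-142a-3p (185 CPM) and miR-223-3p (136 CPM) lay between their levels in the other controls.

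miR-155-5p, linked to leukocyte activation, had lower means in both DROSHA groups than in controls. It was at 96.2, 84.6 and 98.9 CPM in transgene libraries and at 110, 81.9 and 41.5 CPM in knockout libraries, against 106, 151 and 103 CPM in controls. The transgene libraries lay below all controls in TMM-scaled CPM, but not in the deposited TPM, where they were at 68.7 to 88.0, against 78.1 to 108 in controls. Knockout 3, the library with the most miR-142a, had the least miR-155-5p. The log2 fold change was -0.37 (SE 0.36, edgeR adjusted p = 0.732) for the transgene and -0.63 (SE 0.36, edgeR adjusted p = 0.317) for the knockout, and -0.23 for the knockout without knockout 3. Rfam mir-155 reads gave 21.8, 20.7 and 28.7 per 1000000 counted reads in transgene libraries, 28.8, 20.5 and 9.56 in knockout libraries and 23.8, 43.1 and 23.3 in controls. The lowest and highest libraries were the same as for the mature name.

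In the transgene comparison 0 of the 5 members passed in edgeR, where 0% of 955 miRNAs passed, and 1 had an unadjusted p under 0.05 (background 8.8%, and 5.24% for higher alone), which was miR-142a-5p. Of the 5, 2 had transgene libraries above all controls (background 11.9%), and these were the 2 arms of the miR-142a hairpin. Both arms enter every count over the 5 members, so such counts are not of separate units. For 1, miR-155-5p, transgene libraries lay below all controls (background 12%), but not in the deposited TPM. The log2 fold change was above 0 for 3 of 5 (background 46.7%). The median log2 fold change was 0.30 over the members and -0.04 over all miRNAs tested. In the knockout comparison 0 of 5 passed, where again 0% of 955 did, and 1, again miR-142a-5p, had an unadjusted p under 0.05 (background 25.7%, and 15.6% for higher alone). Knockout libraries were above all controls for 1 of 5, miR-142a-5p (background 12.9%), and below for 0 of 5 (background 15.6%). The log2 fold change was above 0 for 3 of 5 (background 48.9%). The median was 0.55 over the members and -0.03 over all miRNAs. Both comparisons use the same 3 controls.

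Between knockout and transgene kidneys 0 of 5 members passed in edgeR, where 0.105% of 955 did, and 0 of 5 had an unadjusted p under 0.05 (background 7.02%). Knockout libraries were above all transgene libraries for 1 of 5, miR-150-5p (background 4.4%), and below for 0 of 5 (background 5.97%). miR-150-5p was at 92.6 to 98.6 CPM in the knockout against 53.6 to 67.0 CPM with the transgene. This also held in the deposited TPM, at 73.5 to 82.0 in the knockout against 38.3 to 59.7 with the transgene. Its log2 fold change was 0.61 (SE 0.73, edgeR adjusted p = 0.798). The fold change was above 0 for 4 of 5 members (background 53.1%). The other log2 fold changes were 0.01 for miR-142a-3p, 0.51 for miR-142a-5p, 0.25 for miR-223-3p and -0.26 for miR-155-5p, each less than its SE.

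**Figure D2:**
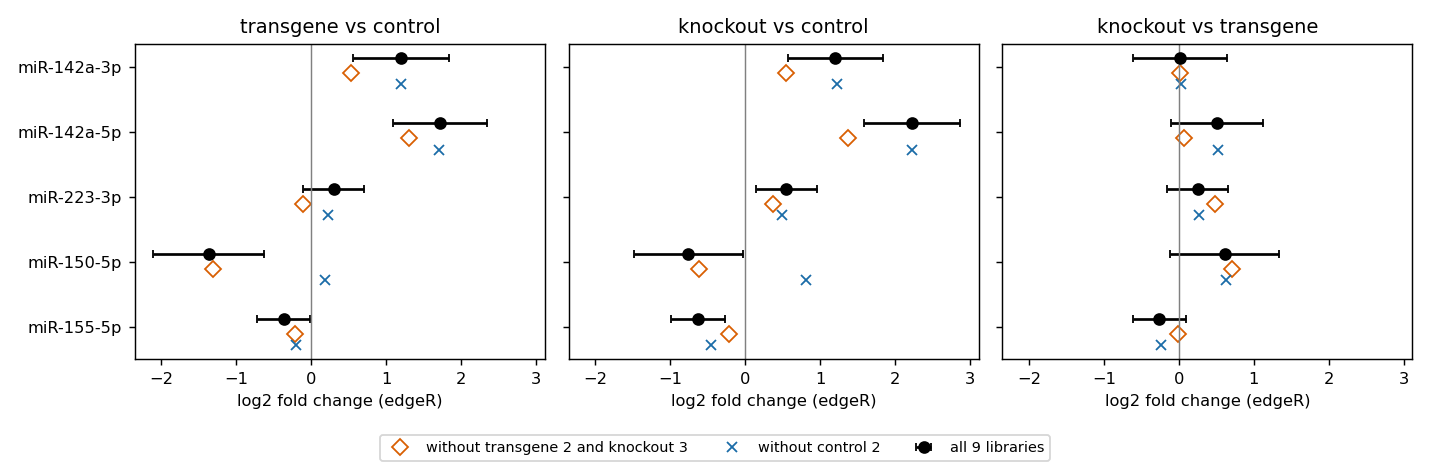
edgeR log2 fold changes of the 5 miRNAs in each comparison, with bars of 1 SE for the fit of all 9 libraries (black). Orange diamonds leave out transgene 2 and knockout 3, and blue crosses leave out control 2. miR-142a-5p stays above 1 in both comparisons with controls, and miR-150-5p crosses 0 without control 2.

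The ratio of the miR-142a arms needs no scaling between libraries, since both arms are read from the same hairpin in the same library. miR-142a-5p was counted at 30.5, 23.5 and 33.7 reads per 100 reads of miR-142a-3p in transgene libraries and at 32.7, 34.3 and 41.2 in knockout libraries, against 16.7, 18.2 and 22.4 in controls. All 6 DROSHA libraries were above all 3 controls, knockout 2 among them, although its miR-142a-3p level lay within the control range. The means were 29.2 ± 5.22 with the transgene, 36.1 ± 4.52 in the knockout and 19.1 ± 2.95 in controls (SD, n = 3 each). On the log2 scale the difference from controls was 0.61 for the transgene and 0.92 for the knockout. The exact two-sided permutation p was 0.1 for each, the smallest that 3 against 3 libraries allow, and 0.3 after Benjamini-Hochberg adjustment over 12 ratio comparisons. Between knockout and transgene it was 0.31, with overlapping groups (exact permutation p = 0.2).

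A fit across hairpins with both arms measured put these differences beside other miRNAs. It was added after the data were seen and used limma on the log2 ratio of 289 hairpins. miR-142a ranked 12th by p-value in the transgene comparison (SE 0.25, limma unadjusted p = 0.0415, adjusted p = 0.801) and 7th in the knockout comparison (SE 0.25, limma unadjusted p = 0.00589, adjusted p = 0.243). Neither passed, and 0% of hairpins passed in either comparison, while 4.84% had an unadjusted p under 0.05 for the transgene and 6.92% for the knockout. The ratio was higher without overlap in 4.84% of hairpins for the transgene and in 6.23% for the knockout. Between knockout and transgene miR-142a did not pass (limma adjusted p = 0.903), where 0.346% of hairpins did. Leaving out any single library gave 0.50 to 0.75 for the transgene and 0.82 to 1.04 for the knockout.

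Reads of the similar name miR-142b overlapped between groups. They stood at 2.87 ± 0.218 per 100 reads of miR-142a-3p with the transgene, 2.62 ± 0.548 in the knockout and 3.07 ± 1.0 in controls (SD, n = 3 each). With miR-142b added to the 5p arm the ratio was 33.6, 26.2 and 36.5 in transgene libraries and 34.8, 37.5 and 43.7 in knockout libraries, against 20.8, 21.3 and 24.5 in controls. The groups still did not overlap with controls, with a log2 difference of 0.52 for the transgene and 0.80 for the knockout (exact permutation p = 0.1 each, the smallest possible).

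**Figure D3:**
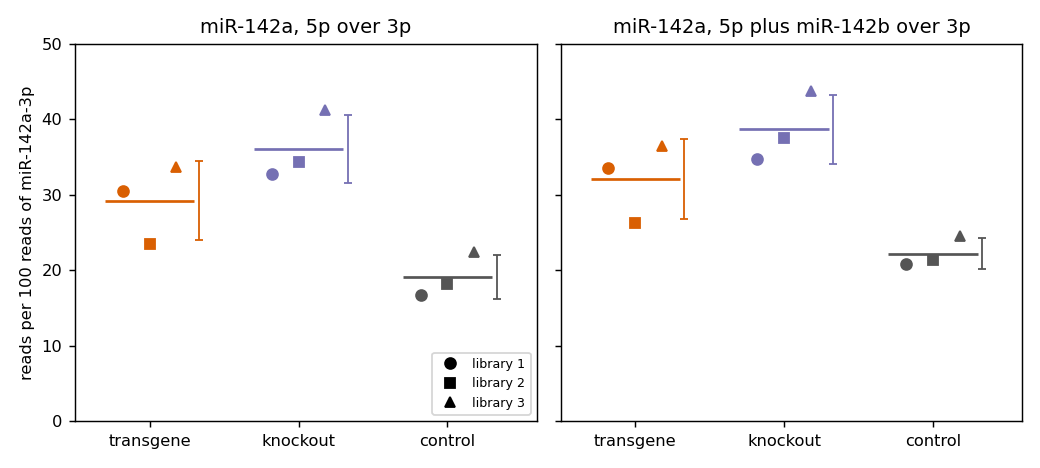
Reads of miR-142a-5p per 100 reads of miR-142a-3p in each library (left), and the same with miR-142b reads added to the 5p arm (right). Lines are group means, and error bars to their right are 1 SD (n = 3). DROSHA libraries sit at 23.5 to 41.2 and controls at 16.7 to 22.4 in the left panel.

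The minor arms of the other hairpins were rare, and their ratios overlapped between either DROSHA group and controls. miR-223-5p was at 2.37 ± 0.375 reads per 100 of miR-223-3p with the transgene, 2.69 ± 0.707 in the knockout and 2.91 ± 0.618 in controls. miR-150-3p was at 1.88 ± 0.240 per 100 of miR-150-5p with the transgene, 1.49 ± 0.332 in the knockout and 2.10 ± 0.540 in controls. In the knockout the ratio was below all transgene libraries (5p over 3p, log2 0.36, limma adjusted p = 0.903), where 5.88% of hairpins were higher without overlap. That separation was narrow, 1.72 against 1.74 at its closest, from 26 to 48 reads of miR-150-3p per library in these groups. The miR-150-3p ratio in control 2 (2.12) lay between those of the other controls, and both arms of miR-150 were high together in that library. miR-155-3p was at 0.362 ± 0.130 per 100 of miR-155-5p with the transgene, 0.407 ± 0.0609 in the knockout and 0.298 ± 0.185 in controls (SD, n = 3 each throughout), from 4 to 17 reads per library.

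The 5 miRNAs did not vary as 1 set. Pearson's r of log2(CPM + 1) over the 9 libraries was 0.93 between the miR-142a arms and 0.60 between miR-142a-3p and miR-223-3p, but -0.60 between miR-142a-3p and miR-155-5p and -0.08 between miR-142a-3p and miR-150-5p. These are descriptions over libraries of 3 genotypes, with TMM scaling in common. Within libraries, miR-155-5p was at 38.8, 12.0 and 46.1 reads per 100 of miR-142a-3p in transgene kidneys and at 33.4, 60.8 and 5.82 in knockout kidneys, against 53.7, 81.8 and 80.6 in controls. The transgene libraries were below all controls (log2 difference -1.35, exact permutation p = 0.1, adjusted p = 0.3), and the knockout libraries overlapped with them (-1.64, exact permutation p = 0.2). Without transgene 2 the transgene value was -0.74, and without knockout 3 the knockout value was -0.65. miR-223-3p was at 53.2, 38.5 and 52.7 reads per 100 of miR-142a-3p with the transgene and at 40.4, 151 and 39.2 in the knockout, against 56.2, 73.4 and 135 in controls. In this ratio the transgene libraries lay below all controls (-0.79, exact permutation p = 0.1, adjusted p = 0.3), while the knockout did not separate (-0.41, exact permutation p = 0.6). Without control 3 the transgene value was -0.43. miR-223-3p itself overlapped with controls in CPM. The ratios of this paragraph share the denominator miR-142a-3p, which was itself above all controls in every transgene library. They are therefore not separate results, and no background share of such ratios was computed. For miR-150-5p over miR-142a-3p the groups overlapped, at -1.64 for the transgene (exact permutation p = 0.3) and -0.94 for the knockout (exact permutation p = 0.5), and without control 2 at -0.72 for the transgene and -0.025 for the knockout.

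**Figure D4:**
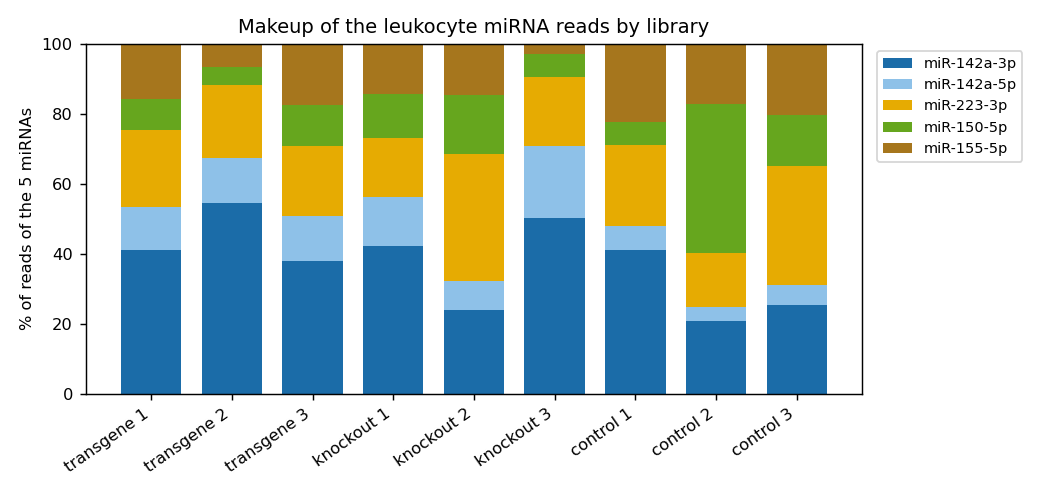
Share of the reads of the 5 leukocyte miRNAs that each took in a library, in percent, with transgene, knockout and control libraries from left to right. miR-150-5p takes 42.8% in control 2 and at most 17.0% elsewhere, and miR-155-5p takes 2.92% in knockout 3.

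The miRNAs most like each member were found by Pearson's r over the 9 libraries among names with a mean of at least 10 CPM. The closest to miR-142a-3p was miR-144-5p (r = 0.99), from the hairpin next to erythroid miR-451a, followed by miR-142a-5p (0.93) and miR-144-3p (0.89). miR-144-5p was at 20.2, 54.2 and 16.9 CPM in transgene libraries and at 29.6, 11.6 and 63.6 CPM in knockout libraries, against 14.7, 15.6 and 8.24 CPM in controls. It followed miR-142a-3p library by library, at 6.44 to 8.97 reads per 100 of miR-142a-3p in all 9. The most abundant erythroid miRNA, miR-451a, was less alike (r = 0.56). The miRNA least like miR-142a-3p of the 464 compared was endothelial miR-126a-3p (r = -0.92).

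**Figure D5:**
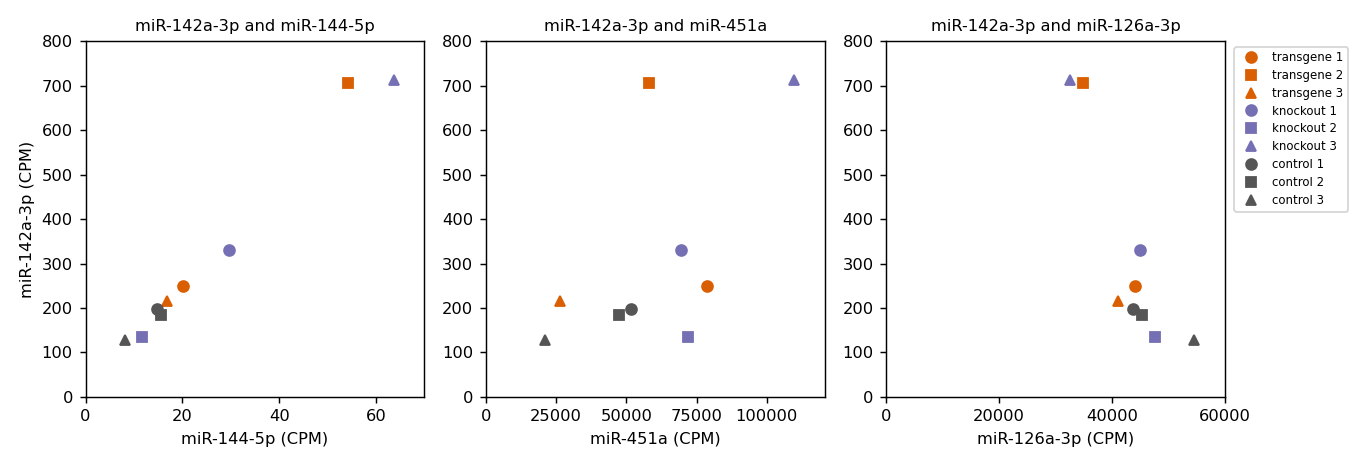
CPM of miR-142a-3p in each library against miR-144-5p, miR-451a and miR-126a-3p (linear axes, 1 point per library). Points for miR-144-5p lie near a line through 9 libraries, while transgene 2 and knockout 3 (707 and 713 CPM of miR-142a-3p) have the least miR-126a-3p.

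For miR-142a-5p the most alike were miR-144-5p (r = 0.95), miR-376c-3p (0.94) and miR-409-5p (0.93), the last 2 from the imprinted Dlk1-Dio3 region. miR-223-3p was most like miR-495-3p (0.89), miR-412-3p (0.88) and miR-154-5p (0.87), all of that region. miR-155-5p was most like miR-20b-5p (0.94), miR-200a-5p (0.93) and miR-17-3p (0.92), of which miR-20b and miR-17 belong to clusters linked to proliferation and miR-200a to epithelium. miR-20b-5p was at 169, 137 and 161 CPM in transgene libraries and at 151, 147 and 66.2 CPM in knockout libraries, against 195, 225 and 214 CPM in controls. miR-150-5p had the weakest best matches, miR-503-3p (0.83), miR-378c (0.71) and miR-669a-5p (0.70).

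A list of 10 other names linked to leukocytes held 9 that passed the filter on low counts, and 0 of these 9 passed in edgeR in either comparison with controls. The list includes the other arms of miR-223, miR-150 and miR-155, and 1 name was at 0 in some library. In the transgene comparison 1 of 9 had an unadjusted p under 0.05 (background 8.8%), 1 had transgene libraries above all controls (background 11.9%) and 1 below (background 12%), and the median log2 fold change was -0.08. In the knockout comparison 2 of 9 had an unadjusted p under 0.05 (background 25.7%), 2 were above all controls (background 12.9%) and 1 below (background 15.6%), and the median was 0.00. miR-342-3p, from an intron of Evl, was at 980, 1045 and 1199 CPM in transgene libraries and at 1414, 1507 and 1291 CPM in knockout libraries, against 1040, 1110 and 1249 CPM in controls. The knockout libraries were above all the others (log2 0.31 against controls, SE 0.18, edgeR adjusted p = 0.327). Its other arm, miR-342-5p, was at 146, 120 and 131 CPM in transgene libraries and at 128, 115 and 113 CPM in knockout libraries, against 179, 269 and 180 CPM in controls. Both DROSHA groups lay below all controls, with a log2 fold change of -0.66 for the transgene (SE 0.24, edgeR adjusted p = 0.529) and -0.82 for the knockout (SE 0.24, edgeR adjusted p = 0.108). The arm ratio of miR-342 (5p over 3p) in the knockout against controls did not pass either (log2 -1.11, SE 0.27, limma unadjusted p = 0.00309, adjusted p = 0.223). It ranked 4th by p-value among the 289 hairpins, ahead of miR-142a and in the opposite direction. The knockout lay below all controls, as 8.3% of hairpins did. miR-146a-5p, a brake on inflammatory signalling, was at 445 to 538 CPM with the transgene, 453 to 509 CPM in the knockout and 503 to 581 CPM in controls. miR-511-3p, hosted by the macrophage gene Mrc1, was at 3.96 to 4.84 CPM with the transgene, 3.24 to 5.10 CPM in the knockout and 3.20 to 4.38 CPM in controls. Its other arm, miR-511-5p, was at 1.49, 1.32 and 1.31 CPM in transgene libraries and at 1.76, 2.16 and 1.81 CPM in knockout libraries, against 1.005, 1.08 and 1.29 CPM in controls. Both DROSHA groups lay above all controls, with a log2 fold change of 0.29 for the transgene (SE 0.25, edgeR adjusted p = 0.705) and 0.76 for the knockout (SE 0.25, edgeR adjusted p = 0.129). For the transgene the separation was narrow, 1.31 against 1.29 CPM at its closest, and this arm was rare in all libraries.

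Summed CPM of tubule and endothelial markers was lowest in the libraries with the most miR-142a, while the other marker sums did not follow it in both of these libraries. Summed tubule markers (8 of 8 found) were at 25710 to 37050 CPM with the transgene, 14850 to 33200 CPM in the knockout and 39600 to 44550 CPM in controls, lowest in knockout 3 and transgene 2. In each comparison with controls 7 of the 8 names had log2 fold changes below 0. The other 1, miR-200c-3p, was above 0 (background 46.7% for the transgene and 48.9% for the knockout). Transgene libraries lay below all controls for 4 of 8 (background 12%) and knockout libraries for 6 of 8 (background 15.6%), and 0 passed in edgeR. Several of the 8, such as miR-200a-3p, miR-200b-3p and miR-429-3p, belong to 1 clustered family, so these counts are not of separate units. Summed endothelial markers (2 of 2) were at 36660 to 45600 CPM with the transgene, 34560 to 48800 CPM in the knockout and 45280 to 56520 CPM in controls, and were lowest in those 2 libraries too. Most of that sum was miR-126a-3p, with log2 fold changes of -0.26 for the transgene and -0.20 for the knockout. The other name, miR-126a-5p, was at 0.16 for the transgene and 0.06 for the knockout. Summed erythroid markers (7 of 7) were at 27430 to 80520 CPM with the transgene, 71950 to 113800 CPM in the knockout and 21510 to 52830 CPM in controls. The knockout libraries lay above all controls in that sum, most of which was miR-451a. All 7 names had log2 fold changes above 0 in both comparisons with controls (background 46.7% for the transgene and 48.9% for the knockout). Both arms of miR-144, miR-486a and miR-486b are among the 7. The medians were 0.44 for the transgene and 1.16 for the knockout, and 0 passed in edgeR. Transgene libraries lay above all controls for 1 of 7 (background 11.9%) and knockout libraries for 2 of 7 (background 12.9%). Summed muscle markers (6 of 6) were at 468 to 1641 CPM with the transgene, 458 to 10510 CPM in the knockout and 221 to 1254 CPM in controls, highest in knockout 3. Both arms of liver miR-122 summed to 712 to 19250 CPM with the transgene, 374 to 6403 CPM in the knockout and 796 to 12030 CPM in controls, highest in transgene 2. No marker of these lists was at 0 in any library. The part of cell makeup or of adjoining tissue in the miR-142a values was not tested. Per 1000 reads of endothelial miR-126a-3p, miR-142a-3p was at 5.64, 20.3 and 5.23 in transgene libraries and at 7.34, 2.83 and 22.0 in knockout libraries, against 4.52, 4.09 and 2.35 in controls. The transgene libraries lay above all controls on that scale, and the knockout overlapped with controls. Since miR-126a-3p was the miRNA least like miR-142a-3p, dividing by it widens the spread of miR-142a-3p. Per 1000 reads of erythroid miR-451a it was at 3.15, 12.2 and 8.16 in transgene libraries and at 4.75, 1.87 and 6.5 in knockout libraries, against 3.83, 3.89 and 6.11 in controls. Per reads of miR-451a both DROSHA groups overlapped with controls, and the means were 7.84 with the transgene, 4.37 in the knockout and 4.61 in controls.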

How the data were processed

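Small RNA was sequenced from 9 whole embryonic kidney libraries. Per the labels' protocols, RNA was extracted with Trizol and libraries followed the BGI protocol. CASAVA 1.8, Bowtie2 and the build mm10 are listed, per the submitters' processing notes, with no roles. How a read matching several names was assigned is not stated in these sources. The deposited counts are whole reads per small RNA name and add up to the header total. The deposited TPM is the count per 1000000 of that total, per the file headers and values, and entered no test. Counts of known mouse miRNAs, with rows of 1 name added, were fitted with edgeR 4.0.16 in R 4.3.3 (TMM, filterByExpr, 955 names, quasi-likelihood F test over all 9 libraries, Benjamini-Hochberg adjustment, threshold 0.05). SEs were derived from the fold change and F. Arm ratios of 289 hairpins with a mean of at least 10 reads per arm used limma 3.58.1, and DESeq2 1.42.0 was an alternative. Ratios used a pseudocount of 1 and exact two-sided permutation tests (scipy 1.17.1). The edgeR and limma fits were run on simulated data with known changes and no outlying library. Those runs therefore do not show how the fits handle libraries such as knockout 3. Replicates differed by more than read sampling. Whether libraries are separate animals is not in the labels, and p-values then reflect only how libraries spread, which may be technical. Reads carry no molecular identifiers. The 5 members are always named, list examples are the most abundant members or were chosen after their values were seen (miR-342-5p, both arms of miR-511, miR-451a, miR-126a-3p, miR-142b), and the 3 most alike miRNAs were named for each member. Members and lists were chosen with earlier results of these data known. Same-numbered libraries did not deviate together.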

Additional observations from a re-analysis of the deposited data

How the results depend on the processing

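Every member had at least 780 reads in each library. The calls of the 5 members stayed at 0 in edgeR under every alternative run. DESeq2 called 1 member in the knockout against controls (miR-142a-5p, log2 2.21), and over all miRNAs 4, 113 and 3 for transgene against control, knockout against control and knockout against transgene, against 0, 0 and 1 in edgeR. The 1 call between knockout and transgene became 0 with the replicate block, with only the 2 groups in the fit, and without transgene 2 and knockout 3, with or without control 2. Leaving out 1 library gave 0 to 1 there and 0 to 48 for the knockout against controls (48 without knockout 1). Against controls the median log2 fold change over all miRNAs was 0.18 (transgene) and 0.19 (knockout) with total counts, and -0.17 (knockout) with DROSHA-independent factors.

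Same-numbered libraries had correlations of deviations from -0.302 to 0.102, so the numbers were not taken as pairs. With the replicate block 0 members were called, and miR-142a-5p had log2 fold changes of 1.71 and 2.09 for transgene and knockout against controls.

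The sign changed for miR-150-5p without control 2 (0.19 for the transgene and 0.81 for the knockout) and without transgene 2, knockout 3 and control 2 (0.25 and 0.96). It changed for miR-223-3p, transgene against control, without transgene 2 (-0.12), without transgene 2 and knockout 3 (-0.11), and with control 2 also left out (-0.15). Between knockout and transgene, miR-142a-3p was at -0.0060 with RLE factors and with DESeq2, -0.033 with total counts, -0.057 with all counted reads, -0.064 with DROSHA-independent factors, -0.036 without the filter, -0.20 without transgene 1, -0.34 without transgene 3 and -0.73 without knockout 3. There, without knockout 3, miR-142a-5p was at -0.43, miR-223-3p at -0.0058 and miR-155-5p at 0.066, and without transgene 3 miR-223-3p was at -0.014. The ratio of miR-223-3p to miR-142a-3p between knockout and transgene was -0.26 without knockout 2. That of miR-155-5p was 0.081 without transgene 3, 0.70 without knockout 3 and 0.093 without both transgene 2 and knockout 3. The cause was not tested. Against controls, the miR-142a arm ratio and both miR-142a folds kept their sign in all alternatives run. Leaving out 1 library in turn gave -0.12 to 0.60 for miR-223-3p and -1.88 to 0.19 for miR-150-5p with the transgene against controls, and -1.25 to 0.81 for miR-150-5p in the knockout against controls. Between knockout and transgene it gave -0.43 to 0.95 for miR-142a-5p, -0.60 to 0.066 for miR-155-5p, -0.73 to 0.70 for miR-142a-3p, -0.26 to 0.71 for the miR-223-3p ratio and -0.99 to 0.70 for the miR-155-5p ratio. Against controls the miR-155-5p ratio was -1.72 to -0.74 for the transgene and -2.34 to -0.65 for the knockout, the miR-223-3p ratio -1.06 to -0.43 for the transgene and -1.05 to -0.052 for the knockout, and the miR-150-5p ratio -2.55 to -0.72 for the transgene and -1.85 to -0.025 for the knockout.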

Other observations

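miR-150-5p was the 1 miRNA of 465 with a mean of at least 10 CPM that stood at least 3-fold above every other library in control 2. Knockout 3 had 16 such miRNAs, transgene 3 had 2, and the other 6 libraries had 0. The fold of 3 was chosen after the data were seen. The 16 of knockout 3 included muscle miR-206-3p, miR-133a-3p and miR-1a-3p, and the 2 of transgene 3 were both arms of miR-802. None of the 5 leukocyte miRNAs was among the 16. miR-142a-5p in knockout 3 was 1.77-fold above the next library, transgene 2.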
